A study of Sus scrofa with 16 samples.

Results

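The Notch genes described here are 3 receptors (NOTCH1, NOTCH2, NOTCH3), 4 ligands or ligand-like proteins (JAG1, JAG2, DLL1, DLK1) and 2 target genes (HES1, HEY1). They were taken by gene symbol, 9 of the 25880 genes in the count table, and each of the 9 had exactly 1 row. All 9 passed the filter on low counts, so none of them was left out of the tests.

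Pituitary RNA came from 16 Puławska gilts, a native Polish breed, of which 8 had a low (LFC, replicates 1 to 8) and 8 a high feed conversion ratio (HFC, replicates 9 to 16). Feed conversion is the amount of feed used per unit of weight gained. All pigs were females of the same breed and the labels name no treatment. By the methods they were unrelated, came from different farms and were tested under common housing and feeding. The labels give an age of 3 months, the methods a higher age at slaughter. The methods describe whole glands, so anterior, intermediate and posterior lobes could all contribute RNA. The labels' extraction text speaks of fat, whereas the 6 pituitary hormone genes checked (GH1, PRL, POMC, CGA, TSHB and FSHB) had counts in all 16 libraries and summed to between 83897 and 256956 CPM (counts scaled to a common library size). The highest sum was in HFC replicate 16, which had the lowest mean of these genes on the log2 scale.

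Notch receptors sit in the cell membrane and are activated by Jagged or Delta ligands on a neighbouring cell. Proteases then release the intracellular part of the receptor, which enters the nucleus, binds RBPJ and switches on repressor genes of the HES and HEY families. In the pituitary the pathway is known for keeping progenitor cells undifferentiated and for its part in choosing between hormone cell types. DLK1 resembles the Delta ligands but lacks the domain with which they bind the receptor, and is known as an imprinted gene of endocrine tissue and fat cell precursors.

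Total counts per library were 18.4 ± 3.36 M in LFC and 15.2 ± 3.24 M in HFC (SD, n = 8 each). The 9 genes were covered by between 22 counts (the lowest library for DLL1) and 20092 counts (the highest for DLK1). LFC replicate 5, HFC replicate 13 and HFC replicate 14 stood apart from the other 13 libraries on the first principal component of log2 CPM. The component held 41.8% of the variance. These 3 libraries lay at its upper end, at 126, 75.1 and 56.6, where no other library exceeded 11.3. The other 13 spread as well, down to -44.9 in HFC replicate 9 and -53.4 in LFC replicate 8. Levels are CPM, which are not corrected for transcript length, so levels are compared between libraries for 1 gene and never between genes. In bulk tissue, fewer cells of a type and less RNA per cell cannot be told apart.

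None of the 9 genes was called between HFC and LFC. The call needed an edgeR adjusted p-value of at most 0.05 over all 14319 genes tested and a fold change of at least 1.3, which 0 of the 9 and 0.0% of all genes met. The fitted change was above 0 in HFC for 6 of the 9 and below 0 for 3, with a median log2 fold change of 0.06, beside -0.01 over all genes tested. At an unadjusted p under 0.05 there was 1 member, HEY1, higher in HFC, beside 4.29% of all genes in that direction and 5.82% in both. The groups overlapped for each of the 9 genes, and non-overlap was seen in 0.021% of all genes. The exact permutation test of log2 CPM over all assignments of 8 of 16 libraries also called 0 of the 9 (0.0% of all genes). Its unadjusted p-values for them ran from 0.149 to 0.919, so 0 of the 9 were under 0.05, beside 4.37% of all genes. DESeq2, run as an alternative, called 0 of the 9 and 0.0419% of all genes.

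**Figure D1:**
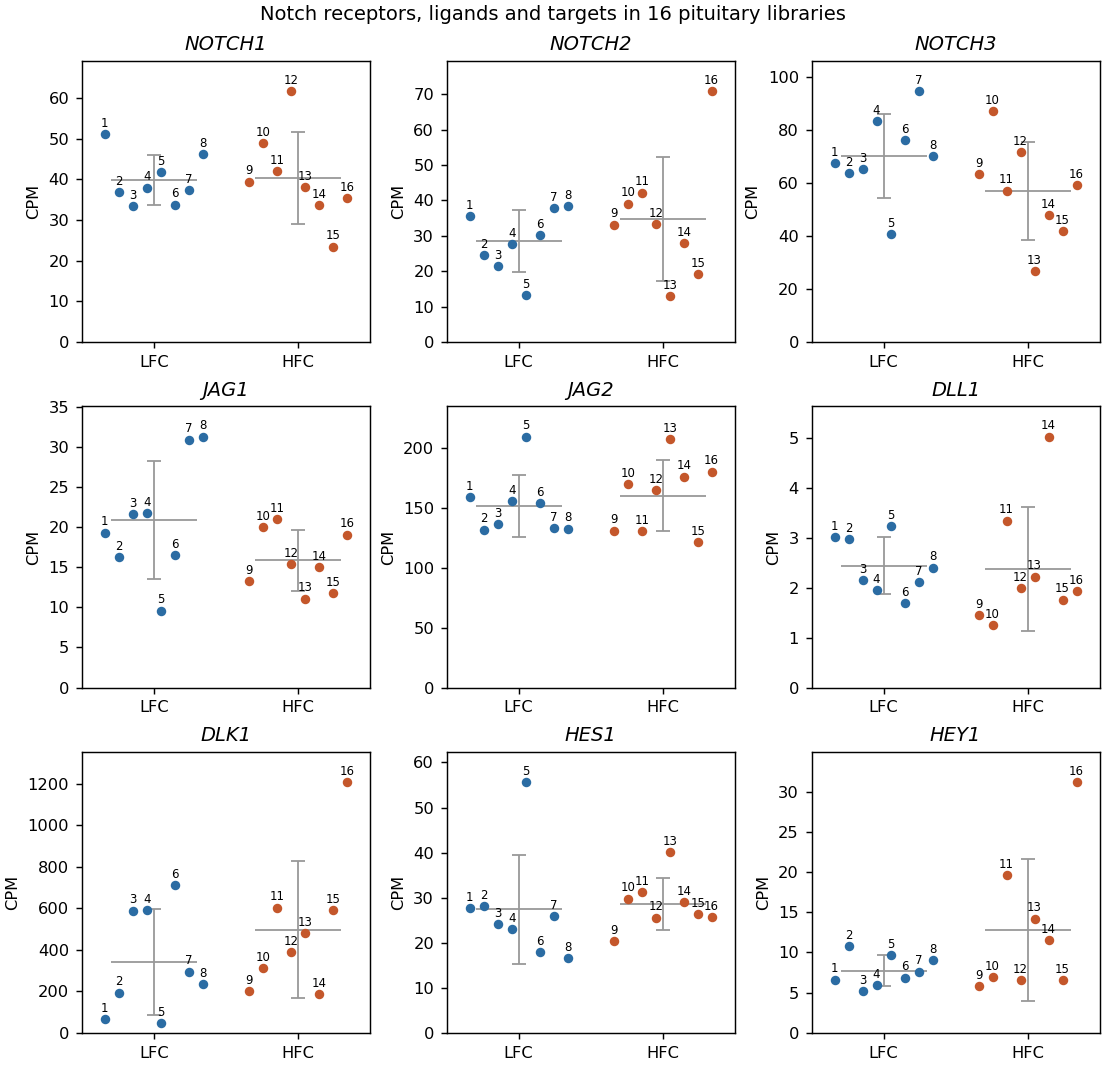
CPM of each of the 9 genes in the 16 libraries, with LFC in blue and HFC in orange, numbers for the replicates, and grey lines for the mean and SD of each group (n = 8). The groups overlap in every panel, and HFC replicate 16 is the highest library for NOTCH2 (70.8 CPM), DLK1 (1210 CPM) and HEY1 (31.2 CPM).

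NOTCH1, a receptor expressed in many tissues, showed the smallest fitted change of the 9 genes. Its gene (ENSSSCG00000038509) lies on an unplaced scaffold of Sscrofa11.1, at 1209486 to 1252805. Its level had a lowest, median and highest value of 33.5, 37.7 and 51.2 CPM in LFC and of 23.5, 38.7 and 61.6 CPM in HFC. The LFC range lay within the HFC range, and both HFC extremes, replicates 15 and 12, fell outside it. The log2 fold change was 0.02 (95% interval -0.32 to 0.35, edgeR adjusted p = 1.0), so a change of more than 1.28-fold in either direction lies outside the interval.

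NOTCH2 (ENSSSCG00000006709, chromosome 4, 100951359 to 101150179) is a receptor known for roles in vessels, kidney and immune cells. Its levels were 13.3, 28.9 and 38.4 CPM in LFC and 12.9, 33.3 and 70.8 CPM in HFC (lowest, median, highest). The lowest library of each group was at nearly the same level, and 6 of 8 HFC libraries exceeded the LFC mean on the log2 scale. A log2 fold change of 0.28 was fitted (SE 0.29, 95% interval -0.32 to 0.88, edgeR adjusted p = 1.0). HFC replicate 16 held 70.8 CPM, whereas the next HFC library, replicate 11, held 42.2 CPM, and without replicate 16 the log2 fold change was 0.05.

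NOTCH3 (ENSSSCG00000025176, chromosome 2, 62364508 to 62405996), the receptor best known from pericytes and smooth muscle of vessels, was the only one of these 3 receptors with a fitted value below 0. Its levels were 40.7, 68.8 and 94.6 CPM in LFC and 26.8, 58.1 and 87.1 CPM in HFC. Of the HFC libraries, 6 of 8 were under the LFC mean on the log2 scale, and the groups still overlapped over most of their range. The log2 fold change was -0.30 (SE 0.20, 95% interval -0.73 to 0.13, edgeR adjusted p = 1.0), and without HFC replicate 13 it was -0.20. The 10 pericyte and smooth muscle markers, all of them counted in all 16 libraries, summed to 65.9 to 317 CPM in LFC and 53.1 to 229 CPM in HFC, and their relation to NOTCH3 had a Pearson's r of -0.20 over 16 libraries and 0.20 over 13.

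The counts of the 3 receptors were also expressed as shares of the receptor total, which needs no scaling between libraries. NOTCH2 took 20.2 ± 3.45% of these counts in LFC and 25.5 ± 7.99% in HFC (SD, n = 8 each). NOTCH3 took 50.3 ± 5.65% in LFC and 42.9 ± 5.78% in HFC (SD, n = 8 each). In HFC replicate 16 the NOTCH2 share was 42.8% (95% Wilson interval 41.0% to 44.7%, counting error only), the highest of the 16 libraries, and the share of NOTCH3 there was 35.8%. These shares also depend on transcript length and are given as a description.

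JAG1 (ENSSSCG00000007067, chromosome 17, 19588020 to 19630085), a Jagged ligand known from vessels and progenitor niches, had the lowest fitted value of the 9 genes. Its levels were 9.61, 20.5 and 31.3 CPM in LFC and 11.11, 15.2 and 21.0 CPM in HFC (lowest, median, highest). The lowest of all 16 libraries was LFC replicate 5, while LFC replicates 3, 4, 7 and 8 were above every HFC library. In HFC 6 of 8 libraries were under the LFC mean on the log2 scale. This gave a log2 fold change of -0.40 (SE 0.22, 95% interval -0.86 to 0.06) with an unadjusted edgeR p of 0.0814 and an adjusted p of 0.918. Without LFC replicate 5 the log2 fold change was -0.51, with an unadjusted edgeR p of 0.0135 and an adjusted p of 0.360. It was -0.30 without LFC replicate 7 and -0.20 with the log2 library total as a covariate.

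JAG2 (ENSSSCG00000002555, an unplaced scaffold, 3262095 to 3276823), the other Jagged ligand, varied least of the 9 genes between libraries. Its levels were 132, 145 and 209 CPM in LFC and 121, 167 and 207 CPM in HFC. The highest library of each group was one of those that stood apart, LFC replicate 5 and HFC replicate 13. Its fitted log2 fold change was 0.08 (95% interval -0.20 to 0.36, edgeR adjusted p = 1.0). It was 0.02 without HFC replicate 13 and 0.16 without LFC replicate 5. The SD within groups was 0.25 on the log2 scale, and 18.5% of all genes tested had a lower one.

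DLL1 (ENSSSCG00000027726, chromosome 1, 198992 to 211342), a Delta ligand known from neural and endocrine progenitors, was counted with the fewest reads. Its levels were 1.69, 2.27 and 3.24 CPM in LFC and 1.25, 1.96 and 5.02 CPM in HFC, from 22 to 69 counts per library. In HFC 6 of 8 libraries were under the LFC mean on the log2 scale, and the highest of all was HFC replicate 14. The fitted log2 fold change was -0.05 (95% interval -0.62 to 0.53, edgeR adjusted p = 1.0), and without HFC replicate 14 it was -0.28. As a fold the interval spans 0.651 to 1.44.

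DLK1 (ENSSSCG00000035805, chromosome 7, 121565844 to 121577493 in the RefSeq annotation of Sscrofa11.1) varied most. Its levels were 46.9, 265 and 712 CPM in LFC and 187, 436 and 1210 CPM in HFC, a 25.8-fold span over the 16 libraries. LFC replicates 5 and 1, at 46.9 and 65.2 CPM, were the only libraries under 187 CPM. HFC replicate 16 alone was over 712 CPM.

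The SD of DLK1 within groups was 1.21 on the log2 scale, and 96.4% of all genes tested had a lower one. The log2 fold change was 0.54 (SE 0.51, 95% interval -0.54 to 1.63, edgeR adjusted p = 1.0), with an interval that includes 0. Still, 6 of 8 HFC libraries exceeded the LFC mean on the log2 scale. Without HFC replicate 16 the log2 fold change was 0.21. The tested genes beside DLK1 in the same imprinted region did not pass either. RTL1, derived from a retrotransposon, had a log2 fold change of -0.17 at only 3 to 24 counts per library (95% interval -1.07 to 0.73). The value was 0.00 for BEGAIN (95% interval -0.66 to 0.66) and -0.10 for WDR25 (95% interval -0.46 to 0.26). DIO3 was below the filter and not tested, with a median of 0.155 CPM in LFC and 1.36 CPM in HFC. MEG3 is not analysed here.

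HES1 (ENSSSCG00000031356, chromosome 13, 131135530 to 131140304), a repressor that keeps progenitors from differentiating, had levels of 16.6, 25.02 and 55.7 CPM in LFC and 20.4, 27.8 and 40.1 CPM in HFC. The highest libraries of the groups were again LFC replicate 5 and HFC replicate 13. HES1 had a log2 fold change of 0.06 (95% interval -0.39 to 0.51, edgeR adjusted p = 1.0), which was 0.29 without LFC replicate 5 (edgeR adjusted p = 0.437) and -0.02 without HFC replicate 13. In HFC 6 of 8 libraries exceeded the LFC mean on the log2 scale.

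HEY1 (ENSSSCG00000006159, chromosome 4, 56859606 to 56866039), a repressor of the same pathway known from vessels and neural progenitors, had the highest fitted value of the 9 genes. Its levels were 5.23, 7.25 and 10.8 CPM in LFC and 5.78, 9.26 and 31.2 CPM in HFC. HFC replicates 16, 11, 13 and 14 held 31.2, 19.6, 14.2 and 11.6 CPM and were above every LFC library. The other 4 HFC libraries, between 5.78 and 6.95 CPM, lay within the LFC range.

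The log2 fold change of HEY1 was 0.73 (SE 0.33, 95% interval 0.03 to 1.42), with an unadjusted edgeR p of 0.0417 and an adjusted p of 0.839. The exact permutation p of the difference in mean log2 CPM was 0.159. Much of this value came from HFC replicate 16: it was 0.40 without that library and 0.15 without HFC replicates 11 and 16. The unadjusted edgeR p-values were then 0.163 and 0.544 (adjusted p = 1.0 for both). In HFC replicate 16, HEY1 made up 54.8% of the counts of HES1 and HEY1 together (95% Wilson interval 51.6% to 58.0%), beside 23.3 ± 6.64% in LFC (SD, n = 8).

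**Figure D2:**
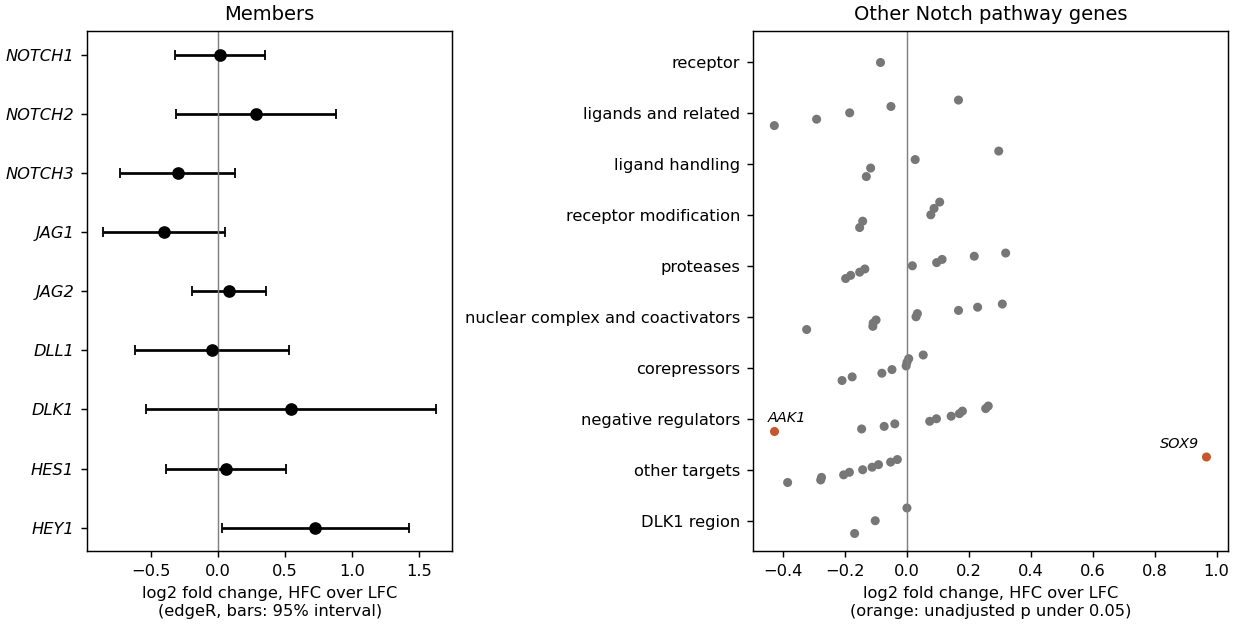
Log2 fold change of HFC over LFC in edgeR, on the left for the 9 genes with 95% intervals, of which the interval of HEY1 alone lies above 0, and on the right for 66 other genes of the pathway by role. Orange marks the unadjusted p under 0.05 of SOX9 (0.97) and AAK1 (-0.43), and none of the genes shown passed after adjustment.

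The rest of the pathway was described with a list of 72 further genes, of which 70 had a row in the table and 66 were tested. Of these, 0 were called. The fitted value was above 0 in HFC for 28 genes and below 0 for 38, with a median log2 fold change of -0.05. At an unadjusted p under 0.05 there were SOX9, higher in HFC, and AAK1, lower in HFC, beside 4.29% and 1.53% of all genes in those directions.

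By role, NOTCH4, a receptor of endothelium, had a log2 fold change of -0.09. Of 5 other ligands tested, 4 had values below 0, from -0.43 for DLK2 to 0.17 for CCN3. The 4 ubiquitin ligases that let ligands be taken up divided evenly, and the 5 enzymes that add sugars to the receptors ran from -0.15 (POGLUT1) to 0.11 (RFNG). Among 9 proteases that cut the receptors, subunits included, the values lay between -0.20 (PSEN2) and 0.32 (APH1B).

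RBPJ, the DNA-binding partner of the cleaved receptor, had a log2 fold change of 0.17, and the 9 genes of the nuclear complex and its coactivators ran from -0.32 (MAML3) to 0.31 (KAT2B). The 8 corepressors ran from -0.21 (SPEN) to 0.05 (HDAC2). Of 11 genes listed as negative regulators, 7 had values above 0, up to 0.26 for DTX1. AAK1 was placed in this list, although it is also annotated as a positive regulator of the pathway. Among 11 other target genes, 10 had values below 0, from -0.39 for HEYL to -0.03 for HES6, and SOX9 alone was above 0. Of those 10, 0 had an unadjusted edgeR p under 0.05. Over all 14319 genes tested, 7391 had fitted values below 0. HES5, a classical target in neural tissue, was below the filter on low counts, and HES7 is not analysed here.

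SOX9 (ENSSSCG00000017251), a transcription factor of pituitary stem cells and of glia, was at 4.79, 7.16 and 9.14 CPM in LFC and at 3.46, 12.02 and 33.4 CPM in HFC (lowest, median, highest). Its log2 fold change was 0.97 (SE 0.34) with an unadjusted edgeR p of 0.0118 and an adjusted p of 0.654. It was 0.64 without HFC replicate 16. HFC replicates 16, 11, 14 and 13 were the highest, as for HEY1. SOX9 was 1 of 10 markers listed for pituitary stem and folliculostellate cells. Of these 10, 3 had fitted values above 0 in HFC and 7 below 0, with a median log2 fold change of -0.12.

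AAK1 (ENSSSCG00000008337), a kinase of endocytosis that acts on the Notch inhibitor NUMB, was at 15.4, 21.8 and 32.8 CPM in LFC and at 10.2, 16.1 and 22.0 CPM in HFC. Its log2 fold change was -0.43 (SE 0.19) with an unadjusted edgeR p of 0.0362 and an adjusted p of 0.824. The highest library was LFC replicate 5, and without it the value was -0.32, with an edgeR adjusted p of 0.450.

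Levels in the libraries that stood apart were compared with those in the other 13, pooling LFC and HFC. The mean log2 CPM of LFC replicate 5, HFC replicate 13 and HFC replicate 14 minus that of the other 13 libraries was -1.19 for DLK1, -0.96 for NOTCH2, -0.86 for NOTCH3 and -0.70 for JAG1. It was 0.72 for HES1, 0.64 for DLL1, 0.46 for HEY1 and 0.44 for JAG2. For NOTCH1 it was -0.07, and these values are a description. The 3 libraries did not all lie on the same side: DLK1 in HFC replicate 13 (8.92 log2 CPM) was above the median of the other 13 (8.61).

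Without these 3 libraries the edgeR log2 fold change was 0.08 for NOTCH1, 0.36 for NOTCH2 and -0.24 for NOTCH3. It was -0.43 for JAG1, 0.06 for JAG2, -0.25 for DLL1 and 0.52 for DLK1, and 0.18 for HES1 and 0.77 for HEY1. None of the 9 was called in that fit (adjusted p from 0.683 to 0.959).

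**Figure D3:**
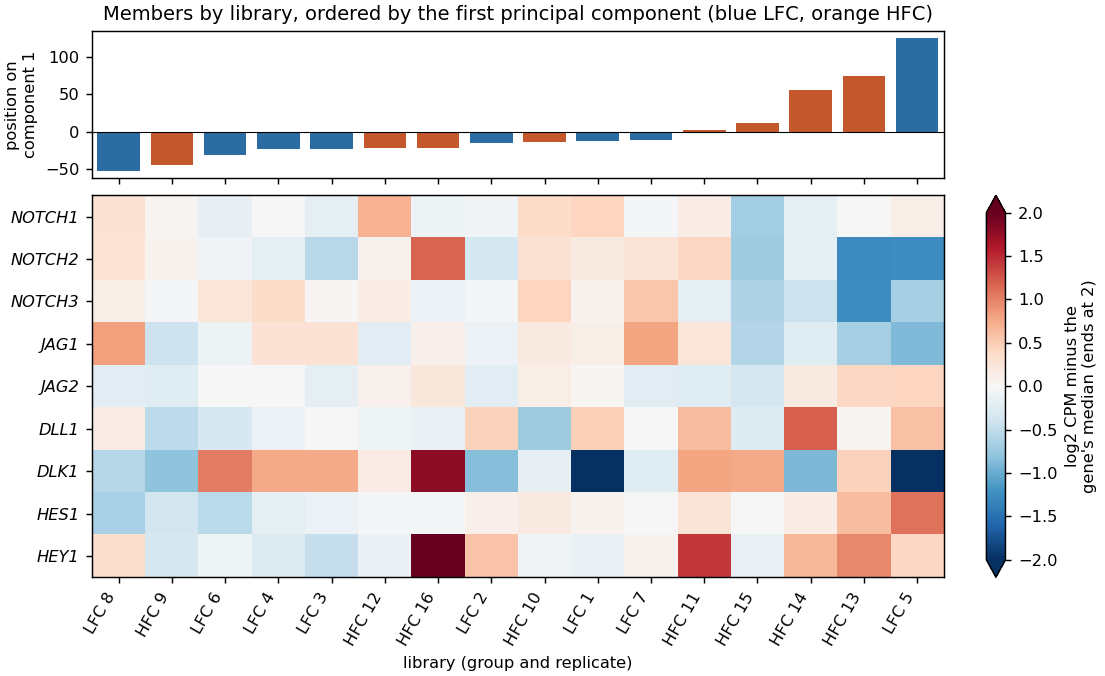
Position of each library on the first principal component (top, no unit) and log2 CPM of each gene minus its median over the 16 libraries (bottom, red above and blue below, colours ending at 2), with libraries in the order of the component. LFC replicate 5 and HFC replicate 13, at the right, are the lowest pair for NOTCH2, NOTCH3 and JAG1 and the highest pair for JAG2 and HES1.

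Variation of the 9 genes together was measured by correlating their log2 CPM across libraries after removing the group means, over 36 pairs. Of these, 3 pairs passed an adjusted permutation p of 0.05, all between NOTCH2, NOTCH3 and JAG1. NOTCH2 and NOTCH3 had a Pearson's r of 0.779 (adjusted permutation p = 0.0199) and a Spearman's rho of 0.653 (adjusted p = 0.126). For NOTCH2 and JAG1 r was 0.776 (adjusted permutation p = 0.0054) and rho 0.809 (adjusted p = 0.0216). For NOTCH3 and JAG1 r was 0.703 (adjusted permutation p = 0.0199) and rho 0.659 (adjusted p = 0.126).

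None of the 3 relations passed once libraries that stood apart were left out. Without LFC replicate 5, HFC replicate 13 and HFC replicate 14, r was 0.432 for NOTCH2 and NOTCH3, 0.645 for NOTCH2 and JAG1 and 0.489 for NOTCH3 and JAG1, and 0 of the 36 pairs passed. Leaving out the pair of libraries farthest from the median of the first gene gave 0.472, 0.646 and 0.489, with 0 of the 36 pairs passing. For these 3 relations that pair was LFC replicate 5 and HFC replicate 13. Both are among the 3 libraries already left out, so this is not a separate check. HES1 and HEY1, the pair of targets, had an r of 0.28 over 16 libraries (adjusted permutation p = 0.402) and 0.18 over 13.

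**Figure D4:**
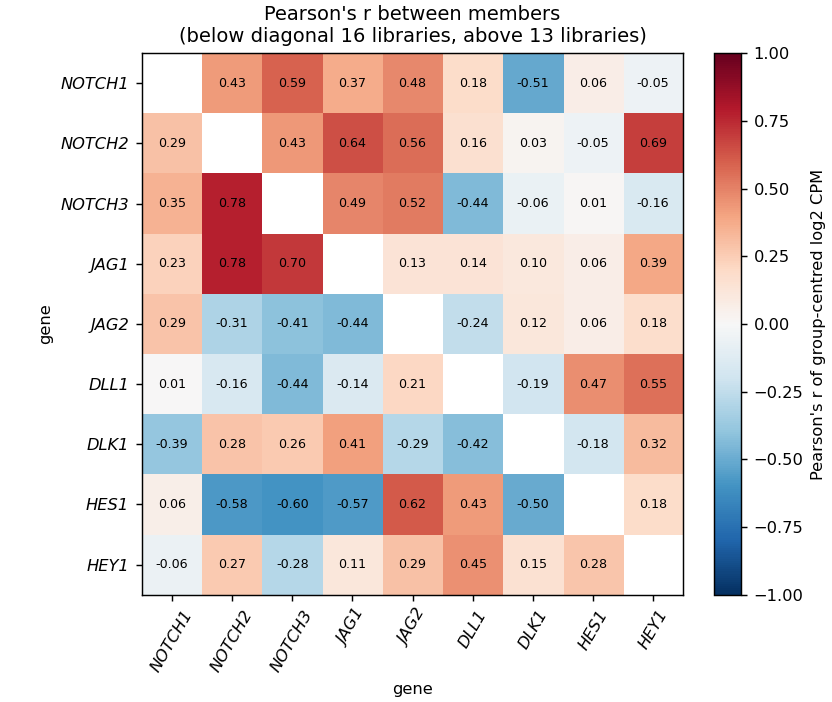
Pearson's r between the 9 genes across libraries, on log2 CPM with group means removed, over 16 libraries below the diagonal and over 13 libraries above it. The block of NOTCH2, NOTCH3 and JAG1 reads 0.70 to 0.78 below the diagonal and 0.43 to 0.64 above it.

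Each of the 9 genes was correlated with lists of cell type markers, since the gland holds many cell types. By Pearson's r over 16 libraries, only HES1 with the microglia and macrophage list passed an adjusted permutation p of 0.05. The 8 microglia and macrophage markers, all of them counted in all 16 libraries, summed to 121 to 726 CPM in LFC and 211 to 485 CPM in HFC. HES1 followed the mean log2 CPM of this list with a Pearson's r of 0.868 (permutation p adjusted over 90 pairs of genes and lists = 0.0270) and a Spearman's rho of 0.721 (adjusted permutation p = 0.0740). LFC replicate 5 was highest in both. It also had the highest mean of the stem and folliculostellate list (6.72 log2 CPM) and of the pericyte and smooth muscle list (4.02). A peak in that library is therefore not particular to the microglia and macrophage list. Over the 13 other libraries r was 0.772 (adjusted permutation p = 0.0664), and without the pair of libraries farthest from the median of the list it was 0.634 (adjusted permutation p = 0.149), so the relation rests in part on those libraries. The part of these cells in the level of HES1 was not tested. Over the 13 libraries NOTCH2 had an r of 0.779 with pituicytes and glia and 0.719 with oligodendrocytes and Schwann cells. With somatotrophs it was -0.837 (adjusted permutation p = 0.0664 for each). Over 16 libraries these r were 0.165, -0.094 and -0.411. NOTCH1 and somatotrophs had an r of -0.262 over 16 libraries. Without the farthest pair of libraries it was -0.705 (adjusted permutation p = 0.0337). Cell types were not tested as a source of these values.

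HEY1 and SOX9 were set beside the list of pituicytes and glia, the supporting cells of the posterior lobe. The list had a row for 9 of 10 markers and summed to 219 to 1362 CPM in LFC and 103 to 3993 CPM in HFC. RAX, a defining factor of these cells, had no count in 7 of the 16 libraries, and LHX2 and COL25A1 each had none in 1. Of the 9 markers tested, 8 had fitted values above 0 in HFC. Of these, 4 were at an unadjusted edgeR p under 0.05, beside 4.29% of all genes in that direction. Of the 9, 0 were called, beside 0.0% of all genes.

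The mean of this list divided the libraries into separate clusters, with none between 1.14 and 3.48 log2 CPM. The upper cluster held 8 libraries, LFC replicates 1, 5 and 7 and HFC replicates 10, 11, 13, 14 and 16. Since the clusters were drawn from the values, no pooled correlation and no test is given.

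The correlations within the clusters were computed without removing group means, so the difference between HFC and LFC is part of them. Within the upper cluster HEY1 had a Pearson's r of 0.966 and a Spearman's rho of 0.952 with the list (n = 8). Without the pair of libraries farthest from the median its r was 0.904. SOX9 had an r of 0.976 and a rho of 0.881 in this cluster. Within the lower cluster HEY1 had an r of 0.500 and a rho of 0.738 (n = 8), and its r was -0.0041 without the farthest pair of libraries, on which it rests. SOX9 had an r of -0.01 and a rho of 0.02 there. HFC replicates 16, 11, 14 and 13 were the 4 highest libraries for the list and for both genes. The part of these cells in the HFC values of HEY1 and SOX9 was not tested.

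The 4 markers with a row for melanotrophs, cells of the intermediate lobe, included POMC, which is not confined to that lobe. They summed to 6056 to 77439 CPM in LFC and 23068 to 246424 CPM in HFC. All 4 had fitted values above 0 in HFC, with a median log2 fold change of 3.33. Of these, 3 were at an unadjusted edgeR p under 0.05, beside 4.29% of all genes in that direction. Of the 4, 0 were called, beside 0.0% of all genes. HFC replicate 16, the highest library for NOTCH2, DLK1 and HEY1, was also the highest in this list. The 6 pituitary hormone genes, POMC included, had their highest sum there but their lowest mean (9.46 log2 CPM, beside 11.7 to 13.8 in the other libraries). PAX7, a defining factor of melanotrophs, had no count in 1 library. The part of these cells in the values of HFC replicate 16 was not tested.

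**Figure D5:**
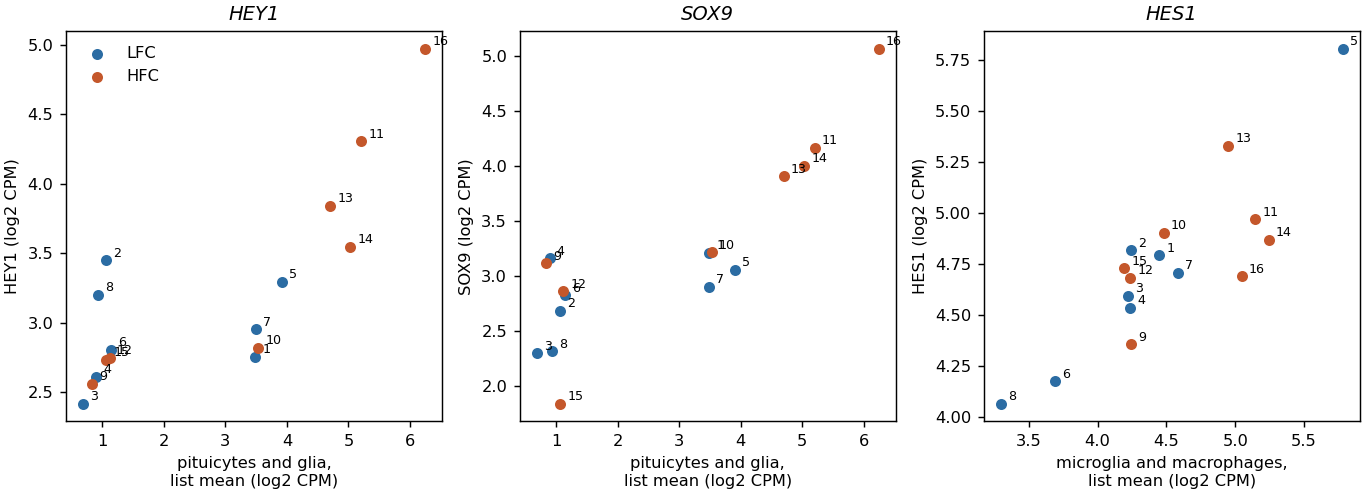
Log2 CPM of HEY1 and SOX9 against the mean log2 CPM of the pituicyte and glia markers, and of HES1 against that of the microglia and macrophage markers, with 1 point per library, LFC in blue, HFC in orange and replicate numbers. The first list leaves a gap between 1.14 and 3.48, and HFC replicates 16, 11, 13 and 14 lie at the top right for HEY1 and SOX9.

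Each gene was last compared with 12183 other tested genes that had a symbol and a mean log2 CPM of at least 1, by Pearson's r of group-centred log2 CPM over the 16 libraries, as a description with no test. NOTCH2 was closest to SH3PXD2A (r 0.971), ANTXR1 (0.968) and ADGRL2 (0.960), which encode a scaffold protein of invasive membrane structures, a collagen-binding receptor and an adhesion receptor. HES1 was closest to SDS (0.955), GPR108 (0.950) and RARRES2 (0.941), and JAG2 to ABCB8 (0.940), with NOXA1 (0.849) also among its closest 3.

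DLK1 was closest to DAB1 (0.919), a signalling adaptor of neurons, DOCK10 (0.888) and NABP1 (0.876). NOTCH3 was closest to ACACA (0.909), the carboxylase that starts fatty acid synthesis, IFFO2 (0.893) and FAM171A1 (0.892). HEY1 was closest to FABP5 (0.899), a fatty acid carrier, PTPN5 (0.899) and HPCAL1 (0.885).

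NOTCH1 was closest to AFAP1 (0.888), FAM104A (0.823) and UNK (0.785), and JAG1 to PREX1 (0.882), FBN1 (0.878), which encodes fibrillin, and CDK8 (0.859). DLL1 was closest to FHOD1 (0.826), TCAP (0.821) and BMP4 (0.819), a growth factor of pituitary development. Over the 13 libraries without those that stood apart, 7 of the 27 closest genes were again among the closest 3 of their gene, among them FABP5 for HEY1 (r 0.947), DAB1 for DLK1 (0.897) and ABCB8 for JAG2 (0.900).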

How the data were processed

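RNA-seq libraries (non-stranded, poly(A)-selected, single reads) were made from whole pituitaries, and technical sequencing repeats are merged in 1 column per pig. The authors aligned cleaned reads to Sscrofa11.1 with Ensembl models and deposited gene counts as whole numbers, not normalised. The submitters' processing notes name FastQC, STAR, RSEM and DESeq2, while the methods also name Bowtie 2, so the aligner behind the counts is not certain. Without strand, overlapping and antisense genes cannot be told apart. The authors' comparison table (group means, folds, p-values) was used for gene symbols and coordinates only, and none of its results were used. DLK1 was named from a table of gene identifiers.

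Groups were compared with edgeR 4.0.16 (glmQLFit, glmQLFTest) in R 4.3.3 on all 16 libraries, with TMM scaling, filterByExpr and no covariate. P-values were Benjamini-Hochberg adjusted over the 14319 genes tested. CPM used TMM library sizes, and log2 CPM a prior count of 2. Exact permutation tests were two-sided, and correlations used 100000 resamples (scipy 1.17.1). The scripts were tested on simulated data. Pairs of libraries of a group differed by more than sampling noise (chi-square over degrees of freedom at least 27.1 in 56 pairs). The members, pathway list, marker lists and tests were chosen with earlier results of these data known. Named genes were the 9 members, pathway genes at an unadjusted p under 0.05 and the 3 genes most like each member, of which 1 is not reported here. The pathway genes named as the ends of the range within a role, or for their function, were added after values were seen. Exon lengths were not used here, so no order of levels between genes is given. Alternatives were DESeq2 1.42.0, limma-voom (limma 3.58.1), other scalings and filters, covariates (sva 3.50.0) and leaving out libraries.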

Additional observations from a re-analysis of the deposited data

Results flagged for a closer look

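LFC replicate 5 lay far from the other 7 LFC libraries in 3 of the 9 genes. NOTCH3 was low there, at 5.35 log2 CPM where the others lay between 6.0 and 6.57. JAG2 was high, at 7.71 log2 CPM against 7.04 to 7.31 in the others. HES1 was high, at 5.80 log2 CPM against 4.07 to 4.82. These came from 18 checks (9 genes in each group), of which chance alone would mark about 0.9, since about 1 group in 20 is marked by chance. The checks share the same libraries and all 3 marks fell in 1 of them. They are therefore not independent, and the expected number is no measure of an excess. The same library stood farthest out on the first principal component, and the part of that in these values was not tested.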

How the results depend on the processing

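No member and no further pathway gene was called under any of the 29 alternatives to the test or the libraries. A threshold of an unadjusted p under 0.05 gave 1 member and 2 pathway genes in place of 0. Over all 14319 genes edgeR called 0, and 834 had an unadjusted p under 0.05, while DESeq2 called 6. That number under 0.05 ran from 436 (without HFC replicates 11 and 16) to 1958 (1 surrogate variable), and was 1716 without LFC replicate 5. HEY1 kept an unadjusted p under 0.05 in 17 of 29 alternatives and ranged from 0.15 (without HFC replicates 11 and 16, chosen after the values were seen) to 0.89, with adjusted p-values from 0.352 to 1.0. JAG1 was under 0.05 unadjusted in 4 of 29, NOTCH2 and NOTCH3 in 1 each. Over the same alternatives the log2 fold change ran from -0.10 to 0.17 for NOTCH1, -0.05 to 0.57 for NOTCH2, -0.43 to -0.09 for NOTCH3, -0.53 to -0.20 for JAG1, -0.05 to 0.16 for JAG2, -0.28 to 0.05 for DLL1, 0.08 to 1.10 for DLK1 and -0.10 to 0.29 for HES1. NOTCH1 and DLL1 each changed sign in 6 of 29 alternatives, HES1 in 4, and NOTCH2 and JAG2 in 1. The member pairs passing fell from 3 to 0 without LFC replicate 5, HFC replicates 13 and 14, to 0 without the pair of libraries farthest on the x axis, and to 1 with Spearman's rho or with no centring. The pairs of member and marker list went from 1 to 0 without those 3 libraries and to 4 without the farthest pair of libraries. Of the 27 most similar genes 7 were shared without those 3 libraries. No paired analysis was possible because the replicate numbers 1 to 16 are not shared between the groups. The order of levels per length was not run. Of the 9 members DLL1 had the fewest counts, and the biological coefficient of variation over all genes was 38.6%.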
